A study of Mus musculus with 2 samples.

Results

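Immediate early genes were described in erythroblasts of the mouse, which are red cell precursors that still have a nucleus. The set had 10 members, picked out by a rule that uses gene symbols alone: Fos, Fosb, Jun, Junb, Jund, Egr1, Atf3, Ier2, Dusp1 and Zfp36. They are 10 of the 43346 Ensembl genes in the deposited tables, and each had a row in both libraries. Per the labels, total RNA came from primary cells of adult male C57BL/6J mice aged 5 to 6 weeks, with no treatment or allele named, and 100 ng was depleted of ribosomal RNA for each library. The 1 group held 2 biological replicates that share 1 donor record, and some of their spread may therefore be technical. The labels also give different size ranges, 200 to 764 for replicate 1 and 138 to 1000 for replicate 2. The part of this in the differences between the libraries was not tested. There is no contrast of conditions.

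Immediate early genes are transcribed within minutes of a signal from existing transcription factors, without prior protein synthesis. FOS and JUN proteins pair through leucine zippers to form the transcription factor AP-1, ATF3 is a stress-inducible partner of JUN proteins, and EGR1 is a zinc finger factor. DUSP1 dephosphorylates MAP kinases, and the protein of Zfp36, tristetraprolin, binds AU-rich elements in messenger RNA and speeds its decay. These last proteins limit the signal that induces the set. Several of the genes are also known to be induced when tissues are dissociated into single cells.

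The libraries held 37312621 and 22464713 expected counts in Ensembl genes in replicates 1 and 2, and a count of 0 allows up to 0.0804 and 0.134 counts per 1000000 (CPM) (counting error only). Protein-coding genes of the nucleus held 11.3% and 6.89% of deposited TPM. Levels are therefore given as coding-scaled TPM, a rescaling in which the nuclear protein-coding genes total 1000000. All 8 erythroid markers were detected, meaning at least 1 coding-scaled TPM in both libraries, with sums of 17296 and 18837 and led by Slc4a1, Alas2 and Tfrc. So were all 8 neutrophil markers (sums of 20138 and 19681, led by S100a8, S100a9 and Ngp), all 8 monocyte and macrophage markers (327 and 284, led by Ccr2, Vcam1 and C1qa) and all 5 mast cell, basophil and eosinophil markers (757 and 644, led by Prg2, Mcpt8 and Epx). Megakaryocyte markers were detected in 4 of 5 (120.04 and 144, led by Itga2b, Vwf and Pf4), B cell markers in 2 of 5 (46.9 and 43.7, led by Jchain, Cd79b and Ms4a1), T and NK cell markers in 2 of 5 (32.3 and 20.6, led by Nkg7, Cd3g and Klrb1c), and endothelium and stroma markers in 3 of 6 (15.02 and 21.2, led by Cxcl12, Lepr and Pecam1). The defining markers Cd8a, Cdh5 and Kdr had 0 counts in both libraries. Which of these cells carried the transcripts described below was not tested, and in bulk RNA fewer cells of a type and less RNA per cell cannot be told apart.

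Most of the 10 genes were expressed above the middle of the range of protein-coding genes, and Egr1 and Fosb were low. Of the members, 9 were detected, against 73.0% of 12895 nuclear protein-coding genes with a TPM above 0. Fosb was the exception, at 0.889 and 1.595 coding-scaled TPM. Its split from Egr1 (1.87 and 1.02) is not resolved. The authors' credibility intervals of Fosb in replicate 1 (0.66 to 1.16) and of Egr1 in replicate 2 (0.64 to 1.47) both contain 1. The median of the members' mean levels was 13.9 coding-scaled TPM, against 7.23 over those 12895 genes, and their median percentile was 63.8. With globins left out of the scaling sum the members' median was 21.99, a change of scale that is the same for every gene in a library. Summed over the 10 genes, coding-scaled TPM came to 156 in replicate 1 and 143 in replicate 2, and counts to 131 and 100.1 CPM. Ordered by mean level they ran Jund, Fos, Jun, Junb, Zfp36, Ier2, Dusp1, Atf3, Egr1 and Fosb. Of the 9 neighbouring pairs in this order, 7 had overlapping ranges between the libraries. The ranges were apart only between Fos and Jun and between Atf3 and Egr1.

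**Figure D1:**
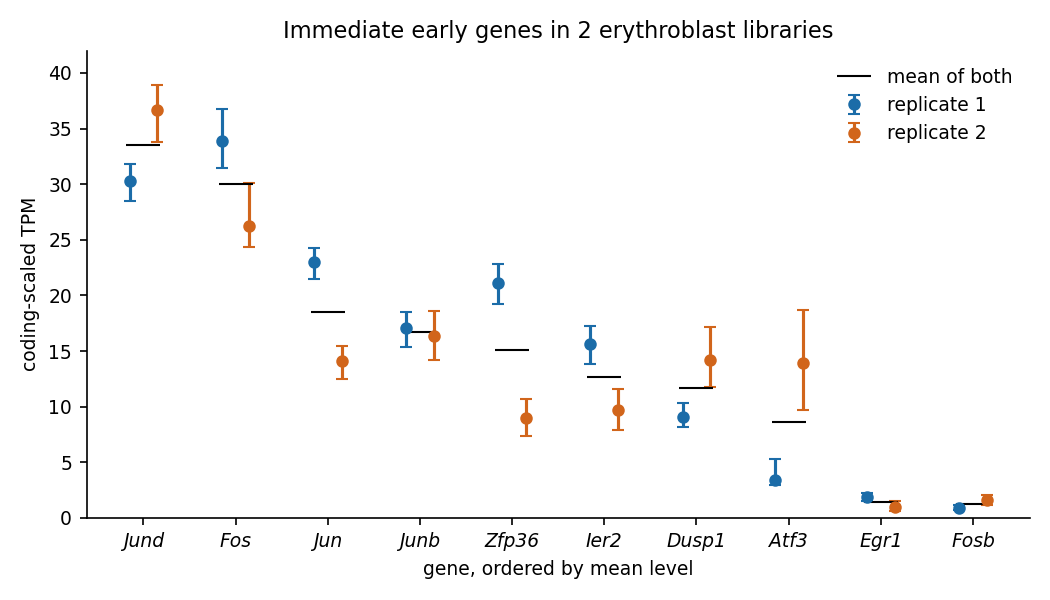
Coding-scaled TPM (vertical axis) of the 10 genes in both libraries, ordered by mean. Points are single libraries with the authors' credibility interval of TPM rescaled in the same way, and the bar is the mean of both. Jund and Fos lie between 26.3 and 36.7, Egr1 and Fosb lie under 2, and Zfp36 and Atf3 have the points farthest apart relative to their means.

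Among FOS genes, Fos (chromosome 12, 85473890 to 85477273 on GRCm38) had nearly all of the expression. It had 825 and 398 counts in replicates 1 and 2, or 33.9 and 26.3 coding-scaled TPM (30.1 ± 5.38, SD, n = 2). Fosb (chromosome 7, 19302696 to 19310051), whose protein can replace FOS in AP-1, had 48 and 44 counts and a level of 1.24 ± 0.4998. The relatives Fosl1 and Fosl2 stood at 0.0889 and 0, and at 2.49 and 2.76. Fos held 90.7% and 85.8% of the summed coding-scaled TPM of these 4 genes. So the library with fewer counts had the same leading FOS gene.

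The promoter of Fos is shown because Fos led its family. It comprises the 250 bases before the RefSeq start on GRCm38.p6, 5′ to 3′ on the gene's strand. Capitals mark the sequence TGACG, the core of the cyclic AMP response element (CRE), and the TATA box sequence TATAAA.
Fos promoter, chr12:85473640-85473889, strand plus: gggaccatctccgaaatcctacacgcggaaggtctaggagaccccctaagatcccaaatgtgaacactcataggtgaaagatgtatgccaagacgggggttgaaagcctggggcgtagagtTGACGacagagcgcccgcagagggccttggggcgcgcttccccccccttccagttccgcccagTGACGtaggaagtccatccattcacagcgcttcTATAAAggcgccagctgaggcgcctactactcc
The core began 129 and 66 bases before the start, and the TATA box 33 bases before it. On either strand, TGACG was found in 17.9% and TATAAA in 12.3% of 32534 RefSeq promoter windows of the same length. The core lay in 5 of the 8 member windows (Fos, Fosb, Junb, Atf3 and Dusp1) and the TATA box in 1. A match is a description of letters and not a site of binding.

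Of the JUN genes all 3 were detected, and Jund was the highest. Jund, which encodes the JUN protein least dependent on stimulation (chromosome 8, 70698949 to 70700616), had 1239 and 774 counts, or 30.3 and 36.7 coding-scaled TPM (33.5 ± 4.52). Jun itself (chromosome 4, 95049034 to 95052222) had 1050 and 331 counts, or 23.01 and 14.1 (18.5 ± 6.33). Junb (chromosome 8, 84974484 to 84978718), which often acts against JUN in growth control, had 427 and 215 counts, or 17.1 and 16.4 (16.7 ± 0.475). Jun and Jund thus differed in which library was higher, and Junb was nearly level.

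The make-up of the JUN genes shifted toward Jund in replicate 2. Jund held 43.1% and 54.6% of their summed coding-scaled TPM in replicates 1 and 2 and Jun 32.7% and 20.95%. Junb held 24.2% and 24.4%. The sums of the JUN genes were 70.4 and 67.2, against 37.3 and 30.6 for the FOS genes. JUN transcripts were therefore 1.89 and 2.19 times FOS transcripts (2.04 ± 0.218). The FOS sum includes Fos-203, a processed transcript with no annotated protein, at 8.09 in replicate 1 and 0 in replicate 2. The difference in this ratio between the libraries therefore depends on counting that transcript. The authors' table used a Jund model of 2878 bases, and release M21 of the annotation has 1668 bases. The per-length level of Jund depends on that model.

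Antisense and convergent neighbours could add reads where strand was not used, and the use of strand in counting is not given in the sources used here. Junos, antisense to Jun over 689 bases, had 36 and 0 counts. Gm11175, antisense to Jund over 919 bases, had 0 and 3. Prdx2, an abundant erythroid gene with 30894 and 14968 counts, overlaps the Junb locus over 351 bases (chromosome 8, 84974484 to 84974834). That stretch lies outside the M21 model of Junb-201 (84976910 to 84978718), the only Junb transcript in the authors' table. Ergic1, with 236 and 44 counts, overlaps the far 5′ end of the Dusp1 locus on the opposite strand over 640 bases (chromosome 17, 26561489 to 26562128). The Dusp1 transcripts in the authors' table end at 26508519, outside that overlap. None of the 10 genes shared reads with similar sequences by the authors' estimate: the posterior standard deviation of the count was 0 for all.

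Atf3 and Egr1 stood for stress and growth factor responses. Atf3 (chromosome 1, 191170296 to 191218039) had 92 and 60 counts, or 2.47 and 2.67 CPM, so the libraries were alike in counts. Its coding-scaled TPM was nevertheless 3.38 and 13.9 (8.65 ± 7.46), 4.12 times higher in replicate 2. The authors' length for the gene, a mean over its transcripts weighted by their shares, was 1964 bases in the first library and 706 in the second. Egr1 (chromosome 18, 34859823 to 34864984) had 100 and 22 counts, or 1.87 and 1.02 coding-scaled TPM (1.44 ± 0.602). Among the members only Fosb was lower, and Egr1 stood at percentile 24.1 of protein-coding genes.

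Ier2 and the feedback genes stood in the middle of the set. Ier2 (chromosome 8, 84661331 to 84662852), which encodes a short-lived nuclear protein, had 316 and 103 counts, or 15.6 and 9.72 coding-scaled TPM (12.7 ± 4.19). Dusp1 (chromosome 17, 26505590 to 26562128) had 293 and 186 counts, or 9.06 and 14.2 (11.6 ± 3.64). Zfp36 (chromosome 7, 28376784 to 28380253) had 515 and 115 counts, or 21.1 and 8.99 (15.1 ± 8.60). Ier2 and Zfp36 were higher in replicate 1 and Dusp1 in replicate 2. The deposited Zfp36 model had 1792 bases, against 2790 in release M21.

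The promoters of the feedback genes are shown for their stimulus response elements, in the same window and orientation as for Fos. In Zfp36 the capitals mark a CArG box, the sequence bound by serum response factor, and in Dusp1 a full CRE (TGACGTCA) and a separate TGACG.
Zfp36 promoter, chr7:28379229-28379478, strand minus: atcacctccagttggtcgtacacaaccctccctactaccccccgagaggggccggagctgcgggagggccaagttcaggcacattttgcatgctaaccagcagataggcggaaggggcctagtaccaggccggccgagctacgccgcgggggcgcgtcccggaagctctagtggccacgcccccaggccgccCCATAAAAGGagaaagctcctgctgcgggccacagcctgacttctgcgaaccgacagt
Dusp1 promoter, chr17:26508473-26508722, strand minus: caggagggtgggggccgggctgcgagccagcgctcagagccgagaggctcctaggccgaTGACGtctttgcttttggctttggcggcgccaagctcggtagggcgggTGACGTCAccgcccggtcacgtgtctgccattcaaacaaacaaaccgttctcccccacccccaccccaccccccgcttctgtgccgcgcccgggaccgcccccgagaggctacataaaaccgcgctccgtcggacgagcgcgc
The CArG box (CCATAAAAGG) began 58 bases before the RefSeq start of Zfp36, and such a box was present on either strand in 1.48% of the 32534 windows. The full CRE began 143 bases before the Dusp1 start and was present in 1.56%. Neither sequence was in the other 7 member windows searched. Sequence outside these windows was not searched. Absence from a window, as for the CArG box in Fos, therefore does not show absence farther upstream. The AP-1 site, searched only as TGANTCA, was in 0 of 8 member windows, against 6.73% of all. Longer variants such as TGACATCA, present in the Jun window, were not searched. The GC box GGGCGG was in 6 of 8, against 33.0%, and the EGR site GCGNGGGCG in 2 of 8 (Fosb and Zfp36), against 4.74%. Windows of Ier2 and Egr1 were not used here. The windows of Fos and Jun end at M21 transcript starts, and the other windows follow RefSeq starts that differ. The Zfp36 window lies inside the span of the M21 transcript Zfp36-201 (28376784 to 28380253). The Jund window lies wholly upstream of Jund-201, which starts at 70698949.

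Many of the members carry the sequence that tristetraprolin recognises. In the 3′ untranslated regions (UTRs) of the leading coding transcripts, the heptamer TATTTAT was present in 7 of the 9 members read, against 27.5% of 10165 protein-coding genes that averaged 20 counts or more. Dusp1 and Zfp36 had 3 each, Fos had 2, and Fosb, Jun, Jund and Atf3 had 1 each. Junb and Ier2 had none. The shorter core ATTTA occurred 5.80 times per kb in Dusp1, 4.91 in Fos, 4.12 in Junb and 3.88 in Zfp36. It occurred 3.24 times per kb in Jun, 2.53 in Atf3, 1.88 in Jund, 0.466 in Fosb and 0 in Ier2, against a median of 1.27 over all genes. Fosb and Ier2 thus lay below that median and the other members above it. Sites of the 3 genes with more than 1 heptamer are shown with the heptamer in capitals, as DNA 5′ to 3′ on the messenger strand, from the M21 transcripts on GRCm38.
Fos 3′ UTR, chr12:85477103-85477131, strand plus: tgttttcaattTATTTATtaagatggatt
Fos 3′ UTR, chr12:85477127-85477155, strand plus: ggattctcagaTATTTATatttttatttt
Dusp1 3′ UTR, chr17:26506159-26506187, strand minus: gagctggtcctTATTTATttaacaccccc
Dusp1 3′ UTR, chr17:26505870-26505898, strand minus: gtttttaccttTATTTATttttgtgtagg
Dusp1 3′ UTR, chr17:26505674-26505702, strand minus: gtatgtttgttTATTTATgatctgaagta
Zfp36 3′ UTR, chr7:28376966-28376994, strand minus: agtgggcccttTATTTATgacgactttat
Zfp36 3′ UTR, chr7:28376951-28376979, strand minus: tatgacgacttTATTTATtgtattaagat
Zfp36 3′ UTR, chr7:28376926-28376954, strand minus: agattttatagTATTTATatatattgggt
The windows of neighbouring sites in Fos and in Zfp36 overlap, so they are not separate stretches.

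The libraries were then compared member by member. The ratio of replicate 2 over replicate 1 was taken from counts scaled with TMM factors (edgeR), with an exact Clopper-Pearson 95% interval that covers counting error only. Each side is 1 library, so no test was made. Zfp36 had a log2 ratio of -1.27 (-1.58 to -0.98), 2.42-fold higher in replicate 1. Egr1 had -1.29 (-2.03 to -0.62), 2.45-fold higher in replicate 1, on only 22 counts in replicate 2. These 2 members were at least 2-fold higher in replicate 1, and 0 were in replicate 2. Among 10386 nuclear protein-coding genes averaging 20 counts or more, 10.7% were at least 2-fold higher in replicate 1 and 7.27% in replicate 2, 18.0% in all. Over all 11468 genes at that depth the shares were 11.5%, 9.65% and 21.1%. Among the 7060 protein-coding genes within the members' own range of mean counts they were 10.5%, 6.36% and 16.9%. The members' count of 2 in 10 is near these backgrounds.

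Smaller ratios also differed in direction within the set. Jun stood at -0.78 (-0.96 to -0.60) and Ier2 at -0.73 (-1.06 to -0.40), both lower in replicate 2 beyond counting error. Fosb stood at 0.76 (0.14 to 1.38) and Jund at 0.21 (0.08 to 0.34), both higher in replicate 2 beyond counting error with TMM. Scaled by library size alone Jund stood at 0.05, and by deposited TPM Fosb stood at 0.07. The intervals of Fos (-0.16, from -0.34 to 0.01), Junb (-0.10, from -0.34 to 0.14), Atf3 (0.27, from -0.22 to 0.76) and Dusp1 (0.23, from -0.04 to 0.50) contained 0. In all, 6 members had a ratio below 0, with a member median of -0.13 against -0.04 over the 10386 genes. The set was therefore not displaced as a block, and the FOS and JUN genes were on both sides.

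The scaling sets the count of members apart. By deposited TPM with a pseudocount of 0.1, 8 members had a ratio below 0, Fos, Jun, Ier2 and Zfp36 were at least 2-fold higher in replicate 1, and Atf3 was at least 2-fold higher in replicate 2. That scaling moves the median of all genes by itself to -0.58, it put Jund (-0.42) and Dusp1 (-0.05) below 0, and the members' median was -0.79 against -0.60 for protein-coding genes. It put 2523 protein-coding genes past 2-fold toward replicate 1 and 236 toward replicate 2 (26.6% in all), against 1115 and 755 with TMM. Library size alone gave 1420 and 581 (19.3%), with a median of all genes at -0.18. By coding-scaled TPM with a pseudocount of 1, Zfp36 (-1.15) was at least 2-fold higher in replicate 1, Atf3 (1.77) in replicate 2, and Egr1 stood at -0.51, against a background of 15.1%. With these pseudocounts Zfp36 was the 1 member past 2-fold in all 5 scalings. For Egr1 the pseudocounts matter. Its deposited TPM was 0.21 and 0.07 in replicates 1 and 2, which the pseudocount of 0.1 shrinks to a log2 ratio of -0.87. Without a pseudocount, its coding-scaled TPM in replicate 2 was 0.544 of that in replicate 1, short of 2-fold.

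**Figure D2:**
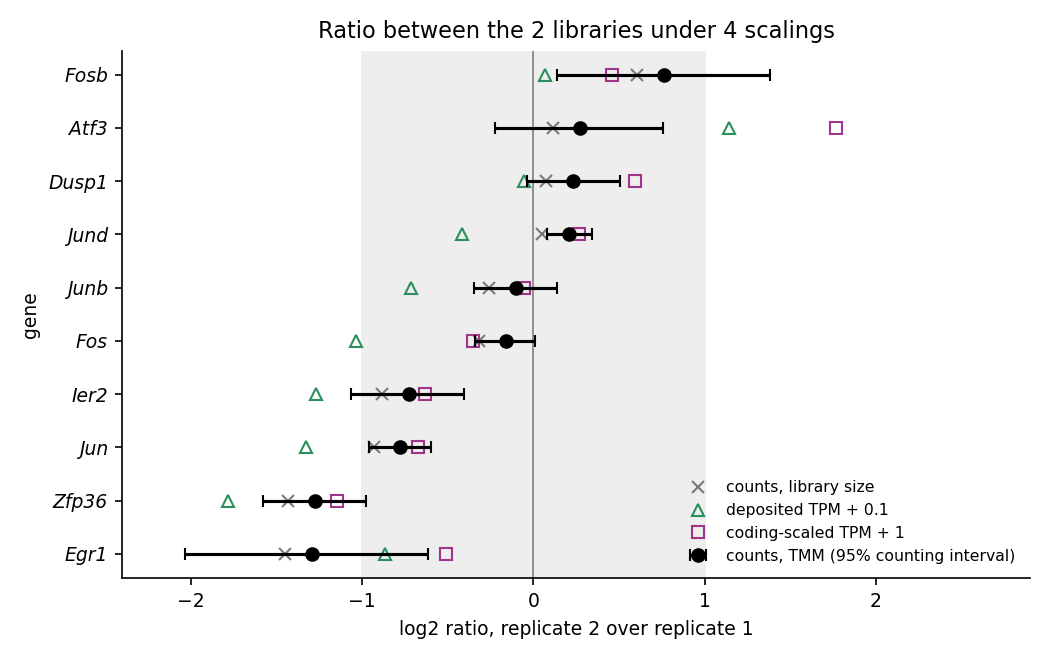
Log2 ratio of replicate 2 over replicate 1 (horizontal axis) for each gene (vertical axis). Black points are TMM-scaled counts with 95% counting intervals, other symbols are other scalings, and the grey band marks ratios under 2-fold. Zfp36 lies left of the band under all scalings drawn, and Atf3 lies right of it only by the per-length units.

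Over all genes, the spread of the ratios was wider in some classes of transcript that hold many members. By the leading transcript of each gene, 9 of the 10 members had 4 exons or fewer, as 27.3% of protein-coding genes do, and 5 were in the highest of 5 equal classes of GC content. In that GC class 13.7% of genes were at least 2-fold higher in replicate 1 and 9.05% in replicate 2, against 7.80% and 6.16% in the lowest class. Of genes with 4 exons or fewer 14.0% were higher in replicate 1 and 10.2% in replicate 2, against 9.51% and 6.17% of other genes. The median log2 ratio was -0.04 in both exon classes. The marker genes Pf4, Cd79b, Cd3g and Col1a1 were at least 2-fold higher in replicate 1, 1 in each list, against 10.7% of protein-coding genes. So was the macrophage marker Cd68, which stood at -1.26 (-1.51 to -1.02), and its list of 8 had a median of -0.12. The lists of the other 4 had these medians over genes averaging 20 counts or more. They were 0.05 for megakaryocyte (4 genes), -0.59 for B cell (2), -1.68 for T and NK cell (2) and -0.11 for endothelium and stroma markers (4). The remaining marker lists had 0 genes at least 2-fold apart. Their medians were -0.29 for erythroid (8 genes), -0.21 for neutrophil (8) and -0.48 for mast cell, basophil and eosinophil markers (5). The part of these properties and of myeloid cells in the ratios of Zfp36 and Egr1 was not tested.

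Transcripts were compared for the 4 members with more than 1 in the deposited table, using the percent of a gene's TPM that each transcript held. For Fos the full-length coding transcript Fos-201 held 76.1% and 100% in replicates 1 and 2. Fos-203, a processed transcript with no annotated protein, held 23.9% in replicate 1 and 0 in replicate 2. Fos-201 alone stood at 25.8 (authors' credibility interval 23.7 to 27.4) and 26.3 (23.4 to 28.5) coding-scaled TPM. The difference in the Fos gene level between the libraries thus lay in Fos-203, at 8.09 (6.27 to 10.1) in replicate 1.

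By the mean of both libraries, the coding transcript of Dusp1 was not its leading transcript. Dusp1-203, annotated with a retained intron (chromosome 17, 26505591 to 26508474), held 100% in replicate 1 and 40.5% in replicate 2. The coding transcript Dusp1-202 had 0 of 293 counts in replicate 1, with a posterior standard deviation of 6.19, and 71.9 of 186 in replicate 2, with one of 16.3. Its credibility intervals, 0 to 0.748 and 2.59 to 7.504 coding-scaled TPM, did not overlap. In replicate 2 the interval of Dusp1-203, 3.77 to 7.81, overlapped that of Dusp1-202, so their order there is not resolved. Another transcript with a retained intron, Dusp1-204, held 23.8% in replicate 2. Its interval there was wide, 0.825 to 6.47 coding-scaled TPM, and the summed share of Dusp1-203 and Dusp1-204 has no interval. By the point estimates, most of Dusp1 was therefore assigned in both libraries to transcripts that keep intron sequence, 100% and 64.4%. The majority in replicate 2 is less certain than that in replicate 1. Total RNA includes unspliced nuclear RNA, and whether these reads were precursor RNA was not tested.

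Atf3 and Egr1 had few counts to divide. Atf3-201, the coding transcript with the usual promoter, held 74.0% in replicate 1 and 12.9% in replicate 2. The short processed transcript Atf3-202, of 517 bases, held 0 in replicate 1 and 87.2% in replicate 2 on 34.5 counts. Coding Atf3 transcripts together stood at 3.38 and 1.74 coding-scaled TPM, while the gene's total was higher in replicate 2. The credibility intervals of Atf3-201, 0.789 to 3.52 and 0.611 to 2.48, overlapped, so a lower coding level in replicate 2 is not resolved. Those of Atf3-202, 0 to 1.74 and 7.36 to 16.8, did not overlap. Egr1-202 held 52.1% and 100%, and Egr1-201 47.9% and 0. Both Egr1 transcripts are annotated as coding. The transcript with the highest mean share over both libraries held 73.2% at the median of these 4 genes.

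**Figure D3:**
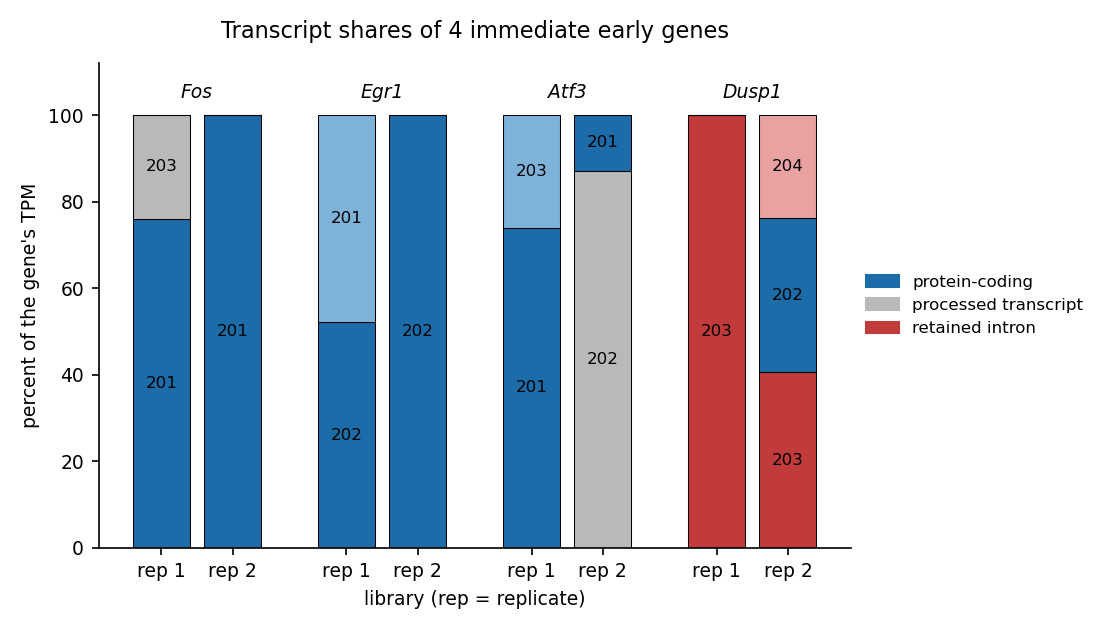
Percent of each gene's TPM (vertical axis) held by its transcripts in both libraries. Numbers in the bars are transcript names and colours are annotated classes. Dusp1 is all retained-intron transcript in replicate 1, and Atf3 is 87.2% processed transcript in replicate 2.

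Relatives of the AP-1 members were mostly low, with a high ATF branch. Of 11 other AP-1 subunits and bZIP partners 7 were detected, and the median level was 2.62 coding-scaled TPM. Atf2, which pairs with JUN and is activated by stress kinases, stood at 81.8 ± 4.04, above every member. Its relative Atf7 stood at 21.9 ± 1.44 and Jdp2, a repressor of AP-1, at 13.7 ± 0.980. Of 5 other EGR and NAB genes only Nab1, a corepressor of EGR factors, was detected (7.64 and 13.8). Egr2 had 20 and 0 counts, Nab2 had 22 and 2, and Egr3 and Egr4 had 0 in both.

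Other immediate early genes spanned a far wider range than the 10 members. Of 30 genes 23 were detected, and the median level was 4.80 coding-scaled TPM. Ppp1r15a, which encodes GADD34 and ends the block of translation in the integrated stress response, stood at 1598 and 1426. It alone exceeded the sum of all 10 members in each library. Gadd45a, a growth arrest gene, stood at 724 and 676, and the antiproliferative gene Btg2 at 433 and 372. Toward replicate 1, Ier3 (log2 ratio -1.94), Nfkbiz (-1.11), Csrnp1 (-1.21) and Nr4a2 (-1.16) were at least 2-fold apart, and toward replicate 2 Nr4a1 (1.38) was. These were 4 and 1 of the 24 genes averaging 20 counts or more, and the median log2 ratio was -0.25. The shares over all protein-coding genes, 10.7% and 7.27%, are the background for these counts and for those of the lists that follow.

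Other feedback genes of MAP kinase signalling were low. Of 15 dual-specificity phosphatase, Sprouty and Spred genes 7 were detected, and the median level was 1.26 coding-scaled TPM, and Spry3 was not analysed here. Dusp8 (16.1 ± 0.861), a phosphatase for stress kinases, and Dusp6 (8.03 ± 0.0770), one for ERK kinases, were closest to Dusp1. The third was Spred1, an inhibitor of RAS signalling, at 3.29 and 7.11, with a log2 ratio of 1.05. Dusp16 (1.58) was also at least 2-fold higher in replicate 2 and Dusp5 (-1.96) in replicate 1, and Dusp4 had 0 counts in both.

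Genes of messenger RNA decay had higher levels than the feedback phosphatases. Of 15 genes 14 were detected, and the median level was 25.6 coding-scaled TPM, and 0 of 14 averaging 20 counts or more were 2-fold apart, against 18.0% of all protein-coding genes. Hnrnpd, which encodes an AU-rich element binding protein, stood at 91.6 ± 14.0, Tial1 at 65.4 ± 26.3 and the deadenylase gene Cnot6 at 46.9 ± 10.4. Among the relatives of Zfp36, named in addition, Zfp36l2 stood at 27.2 and 24.1, above Zfp36 in both libraries, and Zfp36l1 at 3.82 and 2.47. Zfp36l3 had 0 counts.

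Most of the kinases and factors listed upstream of immediate early genes were detected. Of 32 upstream genes 30 were detected, and the median level was 13.5 coding-scaled TPM. Named in addition, Elk1 (0.622 and 1.16) and Mapk11 (0.178 and 0) were not detected, and Srf, the serum response factor gene, stood at 4.09 and 2.76. Elk4, a partner of serum response factor, stood at 89.6 ± 14.1, Atf1, which binds CREs, at 82.4 ± 17.6, and Rps6ka1, a kinase downstream of ERK, at 82.3 ± 16.2. At least 2-fold higher in replicate 1 were Rps6ka2 (-1.05) and Map2k6 (-1.17), and in replicate 2 Map2k7 (1.02) and Mapk13 (1.77).

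A few stress genes stood far above the members. Of 11 integrated stress response genes 8 were detected, and their median level of 11.6 coding-scaled TPM was under the members' 13.9. Eif2ak1, the heme-regulated kinase of this pathway, stood at 829 ± 62.2, Atf4, an inducer of Atf3 in stress, at 149 ± 1.13, and Ddit3 at 43.4 ± 13.1. Of 11 heat shock genes 10 were detected, with a median level of 24.7, led by Hspa8 (805 ± 5.59), Hsp90aa1 (387 ± 169) and Hspd1 (75.5 ± 23.1). Hspb1 had 0 counts, and Hsf1, the heat shock factor, was at least 2-fold higher in replicate 1 (-1.86).

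**Figure D4:**
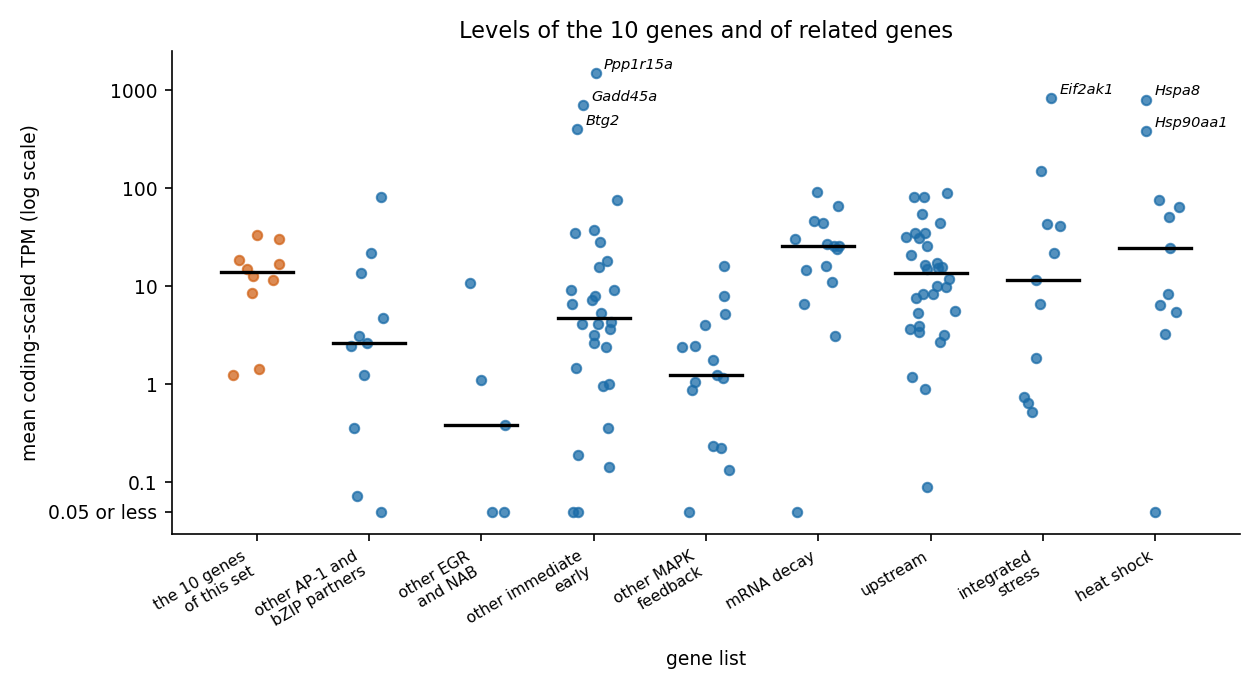
Mean coding-scaled TPM of both libraries (vertical axis, log scale) for the 10 genes, in orange, and the genes of 8 related lists, in blue. Each point is a gene, those at or below 0.05 are drawn at 0.05, and each line is a list median. The 10 genes lie between 1.24 and 33.5, and Ppp1r15a reaches 1512.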

How the data were processed

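Each library had a gene table and a transcript table, 1 library per file. The authors' columns, per the file headers, are expected counts, deposited TPM (relative to all listed features), deposited FPKM, the percent of a gene's TPM per transcript, and posterior means. The deposited bounds of the TPM credibility interval were treated as a score. Per the deposited text records the assembly was mm10 with GENCODE M4. For the aligner, the quantification program and the strand setting, nothing is stated in the sources used here. Symbols, coordinates and transcript classes came from GENCODE M21 (98.0% of Ensembl genes matched) and promoters from RefSeq.

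TPM was rescaled so that 21461 nuclear protein-coding genes sum to 1000000. Rounded counts were scaled with TMM (edgeR 4.0.16, R 4.3.3) over 13863 genes, and DESeq2 1.42.0 size factors were an alternative. Ratios and intervals were tested on simulated data with counting error alone. That checks the calculation, and not whether such intervals cover the spread between these libraries. Scripts ran in Python 3.11.15 (pandas 2.3.3, numpy 2.4.6, scipy 1.17.1), and plots in matplotlib 3.10.9. The rule for the members uses symbols alone, but the set and the lists were chosen with earlier results of these data known. Genes named are the members and, per list, the 3 highest, those at 0 counts in both libraries (within families of relatives) and those 2-fold apart at a mean count of at least 20. A gene that this rule would name is not reported here. Motifs were searched on both strands and AU-rich elements on the messenger strand. With 2 libraries, no gene was named for a pattern like a member's.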

Additional observations from a re-analysis of the deposited data

How the results depend on the processing

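Of the 10 genes, 9 were detected at 1 coding-scaled TPM, and 3 at 1 deposited TPM. Their median level of 13.9 coding-scaled TPM became 21.99 with globins left out of the scaling sum, and lay between 14.0 and 16.3 with 1 replicate left out. The count of 2 members at least 2-fold apart became 5 by deposited TPM and 1 when 100 counts on average were required, which leaves Egr1 out. DESeq2 size factors, library size, coding-scaled TPM and no count minimum each gave 2, but by coding-scaled TPM these were Zfp36 and Atf3. The median leading transcript share of 73.2% lay between 64.1% and 93.6% with 1 replicate left out, following the transcripts that lead by the mean of both libraries. For Atf3 that transcript, Atf3-202, was at 0 in replicate 1, where Atf3-201 led with 74.0%. No paired analysis was possible because there is 1 group. Depth limits Egr1, Fosb and Atf3 most, with mean counts of 61, 46 and 76.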
